A study of Mus musculus with 25 samples.

Results

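The genes for the major milk proteins were followed here through 4 transplanted mouse mammary tumor models given H3B-8800, a small molecule that binds the SF3B complex of the spliceosome and alters intron removal, or vehicle. The 6 genes were 4 caseins (Csn1s1, Csn1s2a, Csn2 and Csn3) and 2 whey protein genes (Wap and Lalba). They were taken by symbol from the deposited intron tables, where they were 6 of 17591 genes and held 50 of 163315 listed introns. A gene's level was the number of reads spliced across its listed introns, summed over those introns and scaled to CPM, the usual count unit relative to library size (TMM), so a read crossing more than 1 intron counted at each.

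The 25 libraries came from whole breast tumors and fell into 8 groups, each a model with one treatment. T11 (3 vehicle and 3 H3B-8800 libraries) and 2208L (3 and 3) grew in Balb/c females, and PyMT-M (4 and 4) and AT3 (3 vehicle and 2 H3B-8800) grew in C57BL/6 females, all aged 4 to 5 weeks when the tumors were placed in the mammary gland. Mice were dosed daily up to collection, and their phenotype label was responder for PyMT-M and 2208L and nonresponder for T11 and AT3. All groups are transplants of existing mouse tumors, and their driving alleles were not named in the labels. The replicates are separate tumors.

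Caseins form micelles that carry calcium and phosphate in milk, and kappa-casein, the product of Csn3, caps the micelle surface and keeps it in suspension. Whey acidic protein (Wap) and alpha-lactalbumin (Lalba), the regulatory subunit of lactose synthase, stay in the soluble phase. In the mammary gland these genes are made by luminal alveolar cells, where prolactin acts through its receptor, the kinase JAK2 and the transcription factors STAT5A and STAT5B, and where the ETS factor ELF5 marks the alveolar lineage.

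The promoters of Csn1s1 and Csn2 are shown for the STAT-type motif TTCNNNGAA, searched on both strands (the pattern is its own reverse complement, and matches to other motifs were not examined). These were among 3 caseins called lower with H3B-8800 in 2208L, calls that depended on the settings and, for Csn2, on the filter, as given below. A link between the motif and the drug was not tested. In the RefSeq table for GRCm38.p6, 5 members, all but Csn3, had an entry of 300 bases, from 250 before to 50 after the annotated start. The motif was found in 3 of these 5 windows, and in 2726 of 32851 windows of all genes (8.30%). Capitals mark the motif in the 250 bases before the start, 5′ to 3′ on the gene's own strand, at chr5:87665958-87666207 on the plus strand for Csn1s1 and at chr5:87699426-87699675 on the minus strand for Csn2.
Csn1s1: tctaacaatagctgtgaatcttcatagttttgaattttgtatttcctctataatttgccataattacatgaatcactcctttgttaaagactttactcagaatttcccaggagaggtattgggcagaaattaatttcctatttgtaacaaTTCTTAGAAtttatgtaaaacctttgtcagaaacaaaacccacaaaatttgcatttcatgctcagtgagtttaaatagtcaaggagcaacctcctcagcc
Csn2: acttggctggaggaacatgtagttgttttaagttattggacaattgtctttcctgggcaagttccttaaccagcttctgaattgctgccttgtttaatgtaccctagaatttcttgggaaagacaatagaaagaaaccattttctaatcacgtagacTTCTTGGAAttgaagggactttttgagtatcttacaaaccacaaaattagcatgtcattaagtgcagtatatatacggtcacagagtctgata
The motif copy of Csn1s1 ran from 100 to 92 bases before its start, and that of Csn2 from 93 to 85 bases before. In Csn1s2a the letters TTCTTAGAA lay 21 to 29 bases after the start. The letters were not in the windows of Wap and Lalba. Positions count from the RefSeq start, which for Csn2 lies inside the gene's GENCODE range. For Csn1s2a the RefSeq start lies before that range: the window ends at 87774499 and the GENCODE gene starts at 87774567. The Csn1s2a motif, although after the RefSeq start, is therefore before the GENCODE start. A match is a description of the letters only.

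Each library held 9820825 to 19700955 spliced reads, and 13001 genes, with all 6 members among them, passed the minimum of 1 CPM in 2 libraries, which for each member was met in PyMT-M or 2208L. Reads inside introns made up more of the reads in H3B-8800 libraries of PyMT-M (17.8% to 27.8%, against 10.5% to 20.001% in vehicle, ranges that overlap) and of 2208L (13.3% to 14.9%, against 7.90% to 10.4%). In AT3 the shares were 14.2% and 20.4% with H3B-8800, against 9.63%, 15.9% and 10.1% with vehicle, values that overlap. The T11 libraries went the other way, with 9.33% to 11.96% in those labelled H3B-8800. Those labelled vehicle held 11.5% to 18.1%, an overlapping range, and T11 libraries are named by their labels. Skeletal muscle or B cell transcripts were high in 6 libraries (T11 vehicle replicate 3, T11 H3B-8800 replicate 2, PyMT-M H3B-8800 replicates 1 and 2, AT3 vehicle replicate 2 and 2208L vehicle replicate 1), and results that rest on them are given without them too.

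Milk protein transcripts were abundant in PyMT-M, present in 2208L and near 0 in AT3 and T11. In vehicle tumors 5 of the 6 members were higher in PyMT-M than in AT3 (edgeR quasi-likelihood test, adjusted p under 0.05), where 60% of all 13001 genes differed, 32.1% being higher. Against T11 the count was also 5, beside 63.4% of all genes. In 2208L, 4 members were higher than in AT3 and the same number higher than in T11, beside 45.2% and 45.6% of all genes. With such shares over all genes, the counts are read here only beside the sizes given next. No member but Csn3 reached the minimum of 1 CPM in AT3 or T11. The filter itself thus favored these calls, which lend no support of their own.

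**Figure D1:**
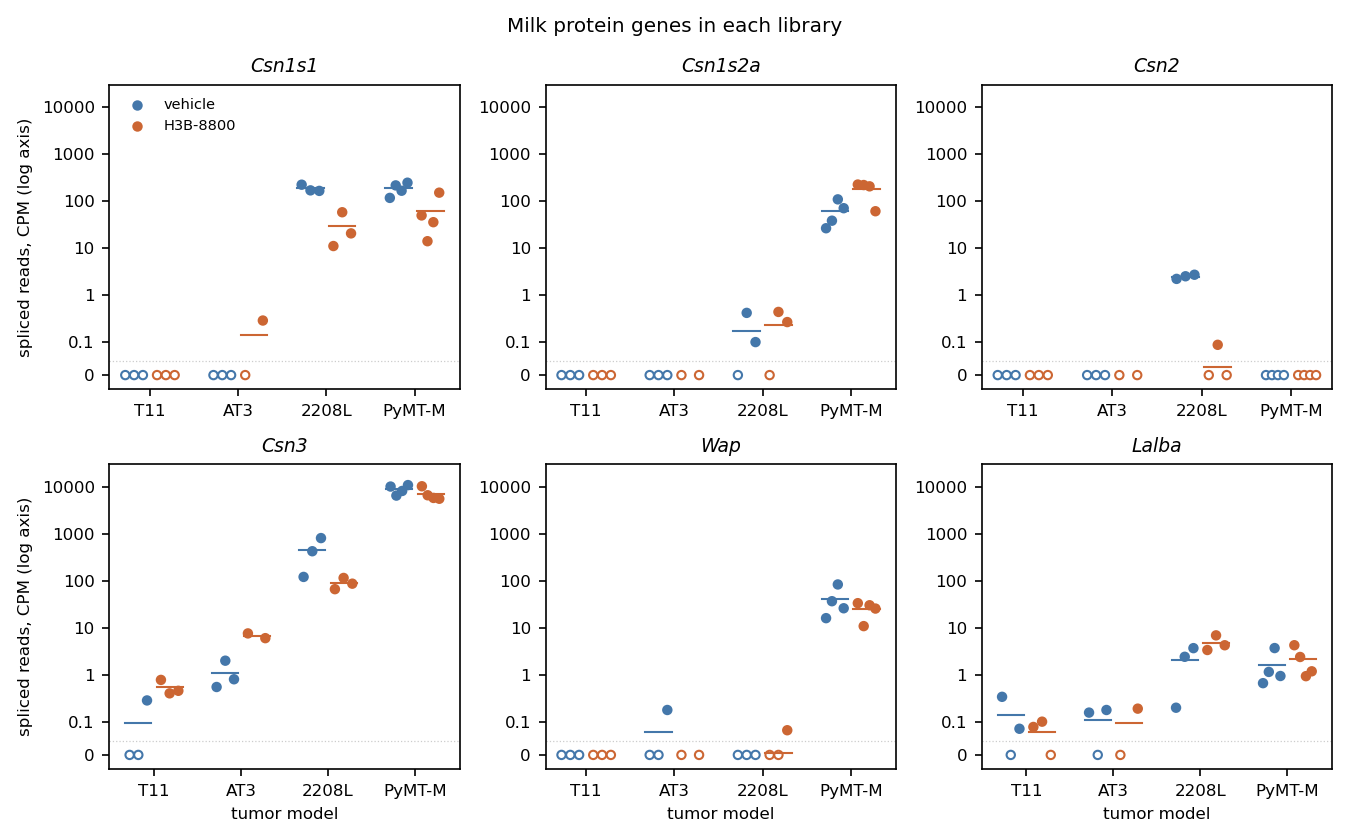
Spliced reads of each milk protein gene in CPM on a log axis, 1 point per library, with vehicle in blue, H3B-8800 in orange, group means as short lines and libraries with no read as open points on the 0 line. Csn3 lies at 5566 CPM or more in all 8 PyMT-M libraries, Csn2 has reads in 2208L alone, and T11 and AT3 reach at most 7.65 CPM, for Csn3 in AT3.

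Csn3 was the leading milk protein transcript in PyMT-M, 2208L and AT3, and in T11 vehicle tumors no member exceeded 4 reads in the group. The PyMT-M vehicle libraries held 10114, 6499, 8154 and 10861 CPM, and the 2208L vehicle libraries 121, 427 and 812 CPM. The AT3 vehicle libraries held 0.555, 2.01 and 0.811 CPM, and of the T11 vehicle libraries 1 held 0.288 CPM and the others 0. No pair of models overlapped in vehicle tumors, although the whole T11 vehicle group held 4 Csn3 reads. On the log2 scale PyMT-M was above AT3 by 12.95 ± 0.77 (SE, edgeR adjusted p 1.18e-11), and 2208L was below PyMT-M by a log2 difference of -4.30 ± 0.51 (adjusted p 1.08e-06). AT3 was above T11 in 39 reads against 4, a pooled ratio of 10.7 (95% exact interval 3.87 to 41.4, counting error only), and Csn3 was the 1 member called in that comparison, beside 40.5% of all genes. That last call was lost when T11 vehicle replicate 2 (adjusted p 0.0769) or AT3 vehicle replicate 2 (adjusted p 0.0953) was left out. All exact intervals here take each count as a separate read. A read crossing more than 1 intron counts at each, so the intervals can be too narrow even for counting error.

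In PyMT-M, Csn3 took 0.415% to 1.10% of all spliced reads of a library and ranked 2 to 11 among 17591 genes by reads per listed intron. Per listed intron, the scale on which members can be set beside each other, the PyMT-M vehicle means were 2227 ± 492 CPM (SD, n = 4) for Csn3, 13.6 ± 9.995 for Wap, 8.70 ± 5.26 for Csn1s2a, 6.19 ± 1.88 for Csn1s1 and 0.543 ± 0.472 for Lalba. Of the 7 Csn1s2a introns, 4 had no spliced read in PyMT-M, and over the other 3 the vehicle mean was 20.3 ± 12.3 CPM, above that of Wap. The ranges of Wap, Csn1s2a and Csn1s1 overlapped, so their order is not separated by the libraries. In 2208L vehicle tumors the order per intron was Csn3 (113 ± 86.5 CPM, n = 3), Csn1s1 (6.17 ± 1.08), Csn2 (0.828 ± 0.0837) and Lalba (0.706 ± 0.594), the last pair overlapping.

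Csn1s1, which encodes alpha-S1-casein, was not separated between PyMT-M and 2208L vehicle tumors. Its levels were 117, 215, 166 and 245 CPM in PyMT-M and 223, 169 and 164 CPM in 2208L, ranges that overlap. The log2 difference between these models was -0.00 ± 0.64, and its sign changed with the setting. AT3 and T11 vehicle tumors held no Csn1s1 read, which puts PyMT-M at least 2115-fold above AT3 and 2208L at least 2374-fold above T11, taking 3 reads over the group as the floor.

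Csn1s2a and Wap were read mainly in PyMT-M. Csn1s2a, an alpha-S2-casein, stood at 26.4, 38.2, 109 and 70.5 CPM in PyMT-M vehicle tumors and at 0, 0.420 and 0.101 CPM in 2208L vehicle tumors, where the group held 6 reads. The log2 difference of 2208L from PyMT-M was -8.28 ± 0.89 (edgeR adjusted p 4.49e-06). Wap stood at 16.1, 37.0, 83.9 and 26.2 CPM in PyMT-M vehicle tumors, while the 2208L vehicle group had no Wap read and so lay at least 425-fold lower. Both genes were among 3 members lower in 2208L than in PyMT-M, the other being Csn3, beside 1 that was higher, and 45.5% of all genes differed there. Csn1s2a and Wap passed the minimum level through PyMT-M alone, so they had to differ and their calls are not read against that share.

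Csn2, the gene of beta-casein, was the member that was higher in 2208L than in PyMT-M. It passed the minimum level through the 2208L vehicle libraries alone, so it too had to differ. It was read in 2208L, with 22, 30 and 27 reads in the vehicle libraries (2.22, 2.52 and 2.71 CPM), and in no library of PyMT-M, T11 or AT3. With 3 reads as the floor, 2208L vehicle tumors were at least 46.6-fold above PyMT-M.

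Lalba was the lowest member with reads in PyMT-M. Its vehicle libraries held 0.670, 1.16, 3.73 and 0.951 CPM in PyMT-M and 0.201, 2.44 and 3.72 CPM in 2208L, overlapping ranges. The log2 difference of 2208L from PyMT-M was 0.38 ± 0.81 (adjusted p 0.725). T11 and AT3 vehicle groups held 4 Lalba reads each.

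Reads along the casein locus on chromosome 5 set PyMT-M apart from 2208L. In mm10 coordinates and GENCODE M21 genes, the locus holds Csn1s1 (87666208 to 87682578, plus strand), Csn2 (87692624 to 87699630, minus strand), Csn1s2a (87774567 to 87788797, plus) and Csn3 (87925579 to 87932665, plus), with Csn1s2b, Prr27, Odam and BC037156 between the last pair. Wap lies on chromosome 11 (6635482 to 6638637, minus strand) and Lalba on chromosome 15 (98480400 to 98482721, minus). In PyMT-M none of the 8 libraries had a read spliced across any of 7 consecutive listed introns, the 3 of Csn2 and the first 4 of Csn1s2a, and 1 read lay inside them. The nearest listed introns with spliced reads ended at 87682189, in Csn1s1, and began at 87785313, in Csn1s2a, 103124 bases apart. The remaining 3 introns of Csn1s2a carried 13066 spliced reads, with 4904, 4161 and 4001 reads from 5′ to 3′. Those 3 introns therefore hold the whole Csn1s2a level in PyMT-M. A count of 0 in PyMT-M allows up to 0.0270 CPM for an intron over the model's libraries.

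The same introns were read in 2208L. Its libraries held 23, 27 and 30 spliced reads across the Csn2 introns, 10 across the first 4 introns of Csn1s2a and 5 across the last 3. Csn1s1 had reads in all 30 listed introns in both models, 143 to 793 per intron in PyMT-M and 60 to 420 in 2208L. The files list 7 of the 13 introns of the longest coding GENCODE transcript of Csn1s2a, 3 of 8 for Csn2 and 30 of 33 for Csn1s1, and every intron of Csn3 (4), Wap (3) and Lalba (3), so reads across unlisted introns were not seen here.

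**Figure D2:**
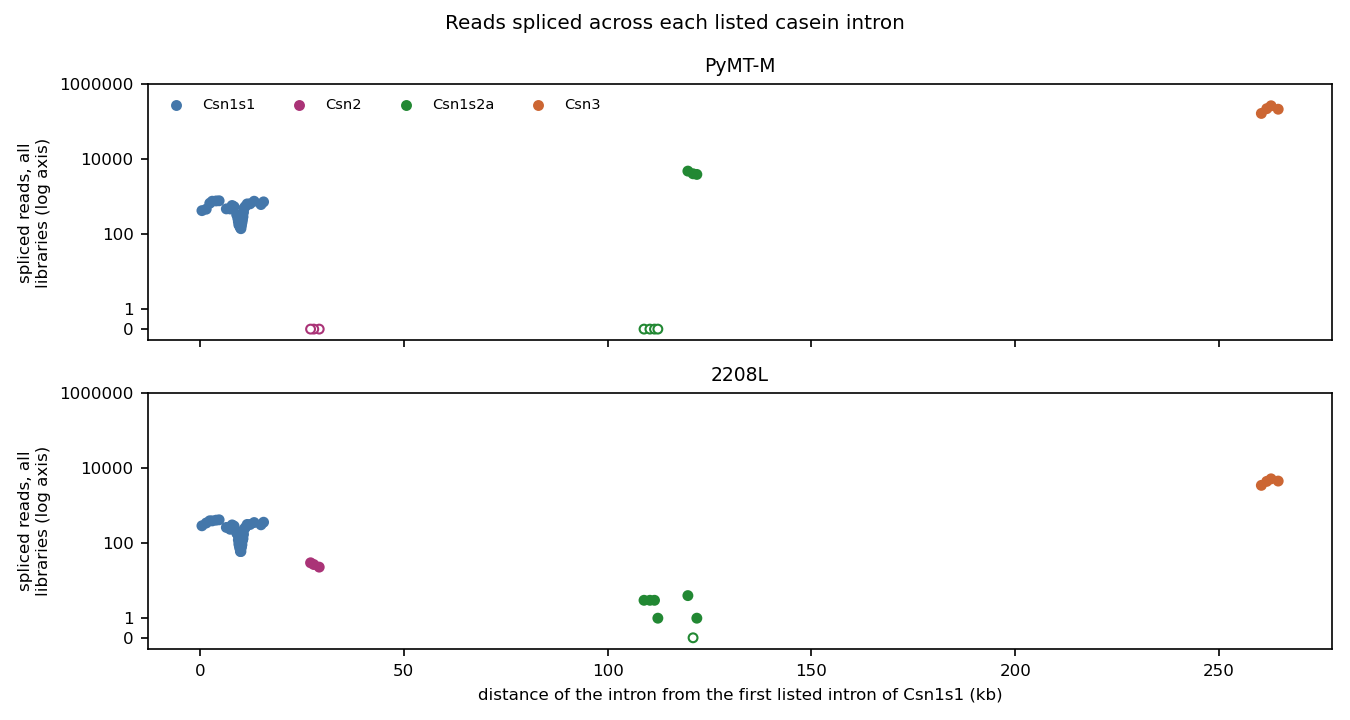
Reads spliced across each listed intron of the 4 casein genes, summed over the 8 PyMT-M libraries (top) and the 6 libraries of 2208L (bottom) on a log axis, against the distance in kb from the first listed Csn1s1 intron. Open points mark introns with no read, which in PyMT-M are the 3 Csn2 introns and the first 4 Csn1s2a introns, and in 2208L 1 Csn1s2a intron.

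Several regulators of the milk protein genes differed between the models. Of 18 tested genes of the prolactin and STAT5 pathway, 11 were higher and 3 lower in PyMT-M than in AT3 vehicle tumors, with a median log2 difference of 2.12 beside 0.08 over all genes, of which 60% were called. Prlr, the prolactin receptor, averaged 17.8 ± 4.07 CPM (SD, n = 4) in PyMT-M, 0.901 ± 0.604 in 2208L and 0.175 ± 0.303 in AT3, and had no read in T11 vehicle tumors. Elf5 averaged 479 ± 49.1 CPM in PyMT-M, 56.4 ± 26.2 in 2208L and 0.0556 ± 0.0483 in AT3. Stat5a (50.6 ± 2.25 and 39.0 ± 7.48 CPM in PyMT-M and 2208L) and Stat5b (61.5 ± 6.93 and 38.1 ± 2.62) differed less between these models. From PyMT-M to 2208L, 8 of the 18 were lower and 2 higher, beside 45.5% of all genes called. By p-value the first were Gata3, a luminal transcription factor, at a log2 difference of -5.93 ± 0.34 (edgeR adjusted p 5.05e-11) and Elf5 at -3.09 ± 0.27. Prlr differed by -4.26 ± 0.58, whereas Stat5a, at -0.37 ± 0.24 (adjusted p 0.203), did not pass.

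**Figure D3:**
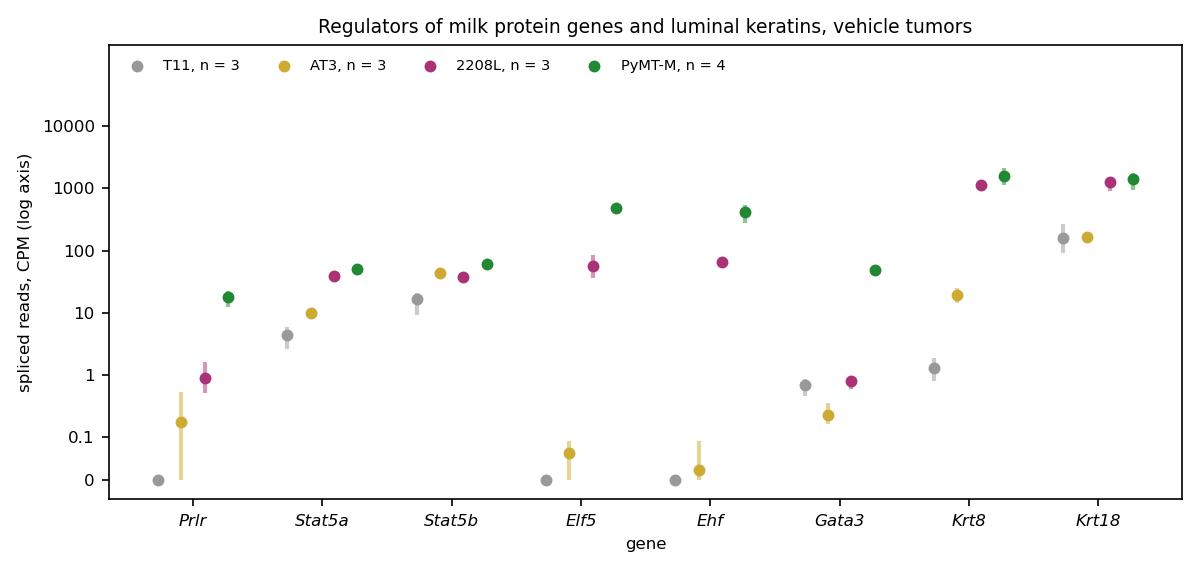
Mean spliced reads (points, CPM on a log axis, with bars from the lowest to the highest library) of 6 regulators and 2 luminal keratins in vehicle tumors of each model. Prlr, Elf5 and Ehf step up from T11 and AT3 to 2208L and again to PyMT-M, while Krt8 and Krt18 are at similar levels in 2208L and PyMT-M.

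Luminal epithelial markers were high where milk proteins were high. The mean log2(CPM + 1) of 13 luminal markers ran from 7.38 to 8.23 in PyMT-M vehicle tumors and from 7.38 to 7.94 in 2208L, against 1.52 to 1.90 in AT3 and 1.28 to 1.31 in T11, and Krt8 averaged 1580 ± 428 CPM in PyMT-M and 1.29 ± 0.542 in T11. Esrp1, an epithelial splicing factor, had no read in the vehicle groups of AT3 and T11, although both models are labelled breast tumor. These are bulk tumors, in which fewer cells of a type and less RNA per cell cannot be told apart. A list of exocrine and salivary gland genes was also high in PyMT-M, with a mean log2(CPM + 1) of 5.61 to 7.09 in PyMT-M, 1.23 to 1.33 in 2208L and 0.17 to 0.37 in AT3 vehicle tumors. Of 14 tested, 12 were higher in PyMT-M than in AT3, beside 60% of all genes called. In 2208L 12 of 14 were lower than in PyMT-M, beside 45.5%. Of its 15 measured genes 10 had no read in AT3 vehicle tumors and 6 had none in 2208L vehicle tumors. Genes that passed the minimum level through PyMT-M alone had to differ, so these counts lend no support of their own. The part of this list in the result was not tested.

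Other lactation genes were split. Of 28 tested, 17 were higher and 2 lower in PyMT-M than in AT3 (median log2 difference 4.36), and 5 were higher and 9 lower in 2208L than in PyMT-M (median -0.47), beside 60% and 45.5% of all genes called. Wfdc18, a whey-acidic-protein-domain gene, averaged 17600.2 ± 6755 CPM in PyMT-M and 4471 ± 1009 CPM in 2208L. Folr1, a folate receptor, was lower in 2208L than in PyMT-M by a log2 difference of -5.54 ± 0.46, and Xdh, the xanthine dehydrogenase of the milk fat globule, by -2.95 ± 0.25. Btn1a1, butyrophilin, did not pass there (-1.96 ± 0.79, adjusted p 0.0527).

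With H3B-8800, 3 caseins fell in 2208L. Csn1s1 was at 223, 169 and 164 CPM with vehicle and at 11.1, 57.8 and 20.6 CPM with H3B-8800. Csn3 was at 121, 427 and 812 CPM with vehicle and at 66.7, 115 and 87.2 CPM with H3B-8800. Csn2 had 22, 30 and 27 reads with vehicle and 0, 1 and 0 with H3B-8800. In none of the 3 did the groups overlap, and for Csn3 the lowest vehicle library (121 CPM) lay close to the highest treated one (115 CPM). The share of all genes without overlap was not computed, so with 3 libraries a side this separation is description only. Csn1s1 fell by 2.64 ± 0.73 on the log2 scale (SE, edgeR adjusted p 0.0362) and Csn3 by a log2 change of -2.34 ± 0.48 (adjusted p 0.00561). The Csn2 reads, 79 against 1, gave a pooled ratio of vehicle over H3B-8800 of 91.0 (95% exact interval 15.9 to 3639, counting error only, adjusted p 0.0129). Of all genes 10.3% were called and 5.67% were lower. Csn2 passed the minimum level through the 2208L vehicle libraries alone, where it is high, so it had to differ and the count of 3 of 6 is not read against those shares.

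The other 3 members did not pass in 2208L. Lalba was at 0.201, 2.44 and 3.72 CPM with vehicle and 3.40, 6.95 and 4.28 CPM with H3B-8800, overlapping groups with a log2 difference of 1.20 ± 0.86 (adjusted p 0.395). Csn1s2a had 6 and 9 reads in the vehicle and treated groups, and Wap 0 and 1. The 2208L calls rest on few libraries. The Csn3 call was lost without vehicle replicate 3 (log2 change -1.61, adjusted p 0.0537) and when 2208L was fitted alone (0.0879), and was kept without vehicle replicate 1, which carried muscle transcripts (-2.76, adjusted p 0.00145). The Csn1s1 call was lost without vehicle replicate 1 (0.0976), 2 (0.0512) or 3 (0.0829) and without H3B-8800 replicate 1 (0.135) or 3 (0.127), with no filter on low counts (0.0551), with 2208L fitted alone (0.0515) and without all libraries with muscle or B cell transcripts (0.0587). The Csn2 call was lost without vehicle replicate 3 (0.0507) or H3B-8800 replicate 1 (0.0636) or 3 (0.0557), with the median over introns (0.0566) and with DESeq2 (0.379).

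In PyMT-M, Csn1s2a rose with H3B-8800 and no other member passed the test. Csn1s2a stood at 26.4, 38.2, 109 and 70.5 CPM with vehicle and at 224, 219, 205 and 60.7 CPM with H3B-8800. Its treated replicate 4 lay among the vehicle libraries, so the groups overlapped. Csn1s2a was the 1 member called, higher by 1.54 ± 0.49 on the log2 scale (edgeR adjusted p 0.0326), where 24.8% of all genes were called and 10.2% were higher, so 1 of 6 is near the background. Csn1s1 stood at 117, 215, 166 and 245 CPM with vehicle and at 49.5, 14.0, 35.5 and 151 CPM with H3B-8800. Its log2 difference was -1.57 ± 0.61 (adjusted p 0.0737), and again treated replicate 4 lay within the vehicle range.

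The ratio of Csn1s2a to Csn1s1 within a library needs no scaling between libraries. It was 0.227, 0.178, 0.655 and 0.287 in the PyMT-M vehicle libraries and 4.53, 15.6, 5.78 and 0.403 in the H3B-8800 libraries. Treated replicates 1, 2 and 3 were above every vehicle library, and replicate 4 was not. These genes already differed in opposite directions in the same libraries, so the shift of their ratio lends no support of its own. Without treated replicate 4 the Csn1s1 log2 difference was -2.49 (edgeR adjusted p 0.00439), but that library stands apart in these same genes, so that value lends no support to a change. The Csn1s2a call was lost without vehicle replicate 1 (0.0728), 2 (0.0819) or 4 (0.0635) and without H3B-8800 replicate 1 (0.0772), 2 (0.0762) or 3 (0.0775), with DESeq2 (0.114), when PyMT-M was fitted alone (0.0588), and without the treated replicates 1 and 2 that carried muscle transcripts and the other libraries of that kind (1.17, adjusted p 0.200, with Csn1s1 at -0.94, adjusted p 0.350). It rests on the last 3 listed introns described above.

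**Figure D4:**
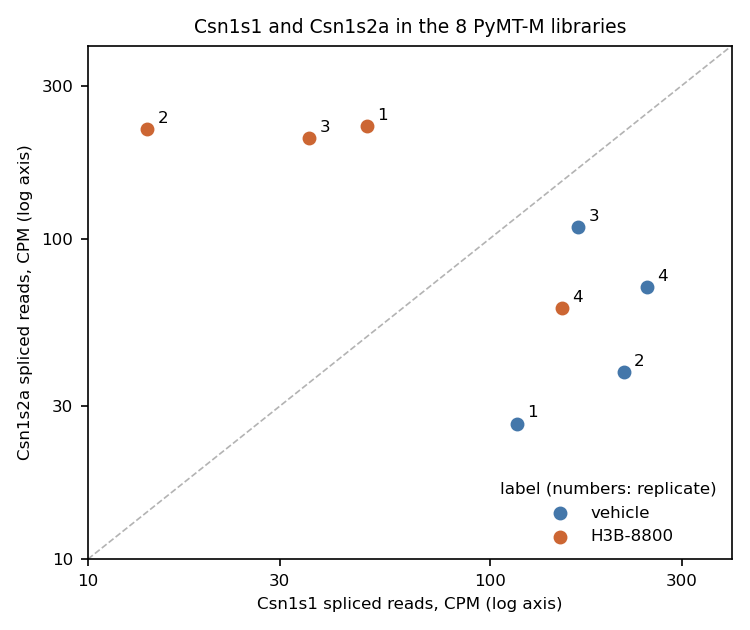
Csn1s1 against Csn1s2a spliced reads (CPM, both axes log) in the 8 PyMT-M libraries, with the replicate number beside each point and the line of equal levels dashed. H3B-8800 replicates 1, 2 and 3 lie above the line, and the 4 vehicle libraries and H3B-8800 replicate 4 lie below it.

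Csn1s2b, a further alpha-S2-casein gene just downstream of Csn1s2a, was lower with H3B-8800 in PyMT-M. It went from 1.65 ± 0.475 to 0.390 ± 0.258 CPM (SD, n = 4 each) in PyMT-M, a log2 change of -2.06 ± 0.65 (edgeR adjusted p 0.0331), from 90 reads to 21. Csn1s2b passed the minimum level through the PyMT-M vehicle libraries alone, where it is high. It therefore had to differ, and the test, beside 24.8% of all genes called, lends no support to a change. In 2208L Csn1s2b had 19 reads with vehicle and 6 with H3B-8800, a log2 difference of -1.90 ± 0.86 (adjusted p 0.178).

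The remaining members did not pass in PyMT-M. Csn3 was at 10261, 6599.6, 5795 and 5566 CPM with H3B-8800, overlapping its vehicle range, with a log2 difference of -0.34 ± 0.40 (adjusted p 0.570). Wap was at 33.6, 10.9, 30.4 and 25.8 CPM with H3B-8800, also overlapping (-0.70 ± 0.48, adjusted p 0.309). Lalba was at 4.29, 2.41, 0.944 and 1.20 CPM with H3B-8800 (0.44 ± 0.74, adjusted p 0.704). Csn2 had no read in either group.

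In AT3 no member was called by edgeR, and 0.3% of all genes were. At an unadjusted p under 0.05 the count was 1, and DESeq2 called 0. That member was Csn3, at 0.555, 2.01 and 0.811 CPM with vehicle and 7.65 and 6.07 CPM with H3B-8800, 39 reads against 129. The groups did not overlap, for which the share over all genes was not computed, and the log2 difference was 2.60 ± 0.65 (adjusted p 0.0831). Wfdc18 was called in AT3, higher by 3.38 ± 0.67 (adjusted p 0.0349), at 0.195 ± 0.116 and 2.17 ± 0.209 CPM, the 1 of 28 other lactation genes called there. Luminal markers were at a mean log2(CPM + 1) of 1.52 to 1.90 with vehicle and 1.95 to 2.52 with H3B-8800, with 0 of 13 called, and their part in the result was not tested.

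In T11 no member was called by edgeR, beside 11.7% of all genes, and the counts at an unadjusted p under 0.05 and with DESeq2 were both 0. Csn3 had 0, 0 and 4 reads in the libraries labelled vehicle and 10, 8 and 10 in those labelled H3B-8800. The log2 difference was 2.25 ± 1.14 (adjusted p 0.211). Without T11 vehicle replicate 3 and T11 H3B-8800 replicate 2, and the other libraries with muscle or B cell transcripts, it was called (5.97 ± 1.32, adjusted p 0.0278), a fit in which every vehicle Csn3 count is 0 and the size is no bound.

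The drug effects on Csn3 had opposite signs in AT3 and 2208L. A test of the difference, added after these values were seen, gave 2208L minus AT3 as -4.94 ± 0.80 on the log2 scale (edgeR adjusted p 0.0367), 1 of 2 genes called among 13001 (0.0154%). PyMT-M minus AT3 was -2.94 ± 0.76 (adjusted p 0.0613) and not called, beside 1.1% of all genes, with 1 member at an unadjusted p under 0.05 and 0 called by DESeq2. PyMT-M minus 2208L, also added later, was 2.00 ± 0.61 (adjusted p 0.0935), beside 1.92% of all genes. For the mean of the effects in PyMT-M, AT3 and 2208L, 0 members were called by edgeR, 0 had an unadjusted p under 0.05 and 0 were called by DESeq2, beside 23.9% of all genes. Csn1s2a, Csn2 and Wap had at most 2 reads in an AT3 group and could not be called there (SE 2485, 3748 and 2104). The Csn1s1 mean takes in an AT3 value of 4.12 ± 4.00, from 3 reads against 0. The count of 0 is therefore not read as the absence of a shared effect. Any pair of the 3 differences shares the libraries of 1 model.

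In 2208L, 1 of 18 tested prolactin and STAT5 pathway genes was called, beside 10.3% of all genes, so the count is near the background. That gene was Jak2, higher with H3B-8800 by 0.64 ± 0.16 (edgeR adjusted p 0.0135). The list's median log2 difference was 0.42 beside 0.00 over all genes. Socs2, a STAT5 target (-0.81 ± 0.31, adjusted p 0.0989), Elf5 (0.79 ± 0.26, adjusted p 0.0577), Prlr (1.20 ± 0.60, 0.212) and Stat5a (-0.30 ± 0.25, 0.475) did not pass. None of 28 other lactation genes was called, beside the same 10.3%. The summed level of the 30 measured was 19733 to 21696 CPM with H3B-8800 and 26454 to 36054 CPM with vehicle in 2208L, without overlap. By mean log2(CPM + 1) the groups overlapped, at 4.22 to 4.33 with H3B-8800 and 4.07 to 4.28 with vehicle. In PyMT-M 4 of the 18 rose and 2 fell, beside 24.8% of all genes called there: Cish, a STAT5 target and feedback inhibitor, rose from 2.42 ± 0.508 to 6.81 ± 1.21 CPM (log2 change 1.49 ± 0.38, adjusted p 0.00726), and Elf5 rose by 0.68 ± 0.22 (0.0298), while Jak2 changed by -0.87 ± 0.14 and Stat5a by -0.68 ± 0.22 (0.0261). Among the other lactation genes 6 rose and 3 fell of 28, beside the same 24.8%, with Folr1 at 1.31 ± 0.33. Lpl, lipoprotein lipase, which fat cells also make, went from 10.2 ± 3.08 to 61.1 ± 44.8 CPM (2.58 ± 0.71). In the same tumors 3 of 9 adipocyte markers were also higher, and their part in the Lpl value was not tested.

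Cell type markers with H3B-8800 in the same tumors are given beside the shares of all genes called, 10.3% in 2208L and 24.8% in PyMT-M. Counts near or below these shares, as for luminal and fibroblast markers, are not read as results about a list. In 2208L 8 of 10 macrophage markers were higher, at a mean log2(CPM + 1) of 6.93 to 7.05 against 4.05 to 6.07 with vehicle, and 3 of 11 tested basal markers were higher. Luminal epithelial markers were at 7.40 to 7.62 against 7.38 to 7.94, with 1 of 13, Elf3, lower, and luminal progenitor markers at 6.27 to 6.43 against 6.58 to 7.002, with 1 of 10, Cd14, lower. The summed progenitor level in 2208L was 11009 to 13128 CPM with H3B-8800 and 23930 to 34198 CPM with vehicle. The groups overlapped by neither measure. In PyMT-M 7 of 10 macrophage and 5 of 11 basal markers were higher and 0 of 13 luminal markers were called (7.58 to 7.996 against 7.38 to 8.23). Luminal progenitor markers there had 1 of 10 higher and 1 lower. Their summed level was 16312 to 33256 CPM with H3B-8800 and 35320.5 to 58452 CPM with vehicle, without overlap. By mean log2(CPM + 1) the groups overlapped, at 6.88 to 7.75 with H3B-8800 and 7.17 to 7.68 with vehicle. Of 9 tested adipocyte markers 3 were higher (Plin1, Retn and Adipoq), at a summed 22.5 to 494 CPM against 29.6 to 85.1 CPM, with Lep and Adrb3 at 0 in the vehicle group. The highest adipocyte level was in treated replicate 4, the library that stood apart for Csn1s2a. Of 10 fibroblast markers 2 were higher (Dcn and Dpt), at a summed 3318 to 6072 CPM against 1588 to 4635 CPM. None of the macrophage markers was at 0 in these groups. The part of these lists in the milk protein results was not tested.

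The drug acts on intron removal, so reads inside the members' introns were examined as a second readout. Only the 4 introns of Csn3 had enough reads to be tested among 52042 introns. In PyMT-M the reads inside introns 1, 2 and 3 rose against the gene's spliced reads, by 2.02 ± 0.52, 2.10 ± 0.48 and 1.38 ± 0.42 on the log2 scale (edgeR adjusted p 0.00149, 0.000437 and 0.00562), while intron 4 was at -0.58 ± 0.40 (0.213). Over all introns 60.3% were called and 54.7% were higher, so 3 of 4 is near the background. Even so the reads inside stayed few: intron 3 went from 1.39% ± 0.730 to 3.43% ± 1.07 of its reads (SD, n = 4) and intron 1 from 0.297% ± 0.159 to 1.14% ± 0.308.

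In 2208L, where Csn3 fell, 0 of the 4 introns were called by edgeR and 0 had an unadjusted p under 0.05, beside 21.5% of all introns called. Intron 3 was at 2.33% ± 0.440 with vehicle and 4.29% ± 1.14 with H3B-8800 (n = 3). For the members whose introns were too thinly covered, pooled shares of reads inside introns are given with 95% exact intervals for counting error only. Csn1s1 was at 0.665% (0.516 to 0.842) with vehicle and 1.67% (1.27 to 2.16) with H3B-8800 in PyMT-M, and at 0.864% (0.644 to 1.13) and 1.19% (0.636 to 2.03) in 2208L. Single libraries overlapped in PyMT-M, at 0.222% to 1.18% with vehicle and 1.09% to 2.16% with H3B-8800, and in 2208L, at 0.674% to 1.08% and 0% to 1.65%. Wap was at 2.51% (1.91 to 3.23) and 5.64% (4.50 to 6.96) in PyMT-M, where its libraries also overlapped (1.63% to 5.61% and 2.77% to 7.91%). Csn1s2a was at 1.58% (1.19 to 2.07) and 1.74% (1.49 to 2.02) there.

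**Figure D5:**
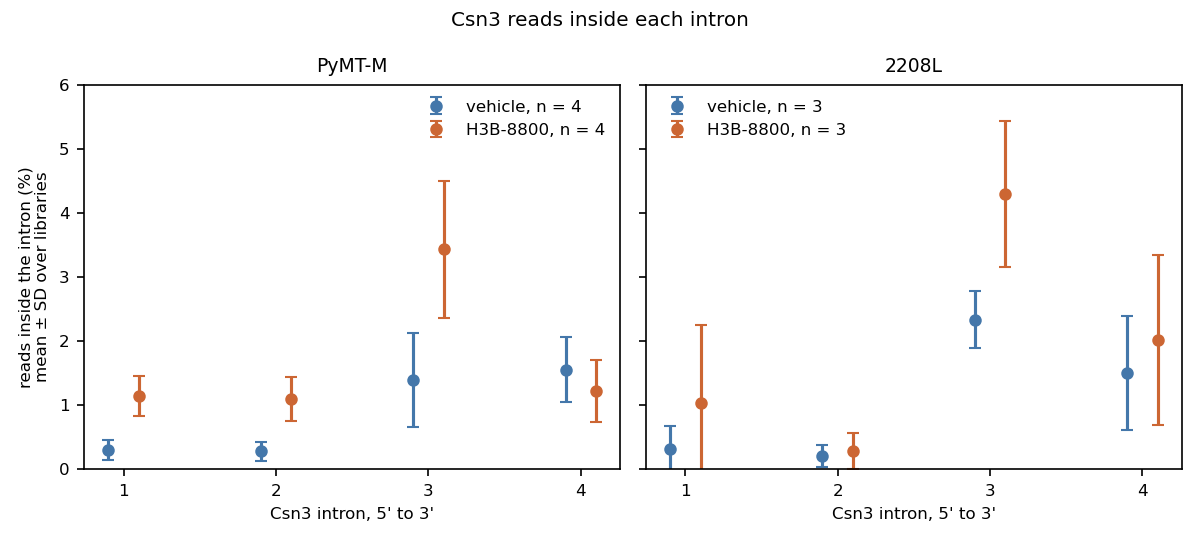
Percent of reads that lie inside each Csn3 intron, as mean ± SD over libraries, with vehicle in blue and H3B-8800 in orange, in PyMT-M (left) and 2208L (right). Introns 1 to 3 are higher with H3B-8800 in PyMT-M and intron 4 is not, and all means are below 5%.

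Coverage along Csn3 differed between libraries. The last listed intron of Csn3 held 2.50 times the reads of the first in PyMT-M vehicle replicate 4, against 1.08 to 1.28 in the other PyMT-M libraries, and for Csn1s1 the same library gave 4.00. In 2208L the Csn3 ratio was 1.34 to 1.69 with vehicle and 0.923 to 1.12 with H3B-8800, groups that did not overlap and in which the Csn3 level also differed. The part of this coverage in the Csn3 result was not tested. PyMT-M vehicle replicate 4 also had the largest share of intronic reads among PyMT-M vehicle libraries, 20.001%.

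The genes whose levels tracked the mean log2(CPM + 1) of the 6 members over the 25 libraries were led by Tspan1, Ppp1r1b, Clca3a2, Clca3a1, Tmprss2, Timd2, Sorbs2, Rasal1, Chrm3 and Bcl2l14, with Pearson's r of 0.983 to 0.991. The libraries fall into models with high and low levels, so the value describes the models. Clca3a2 averaged 6659 CPM in PyMT-M and 509 CPM in 2208L vehicle tumors and 0.143 CPM in AT3. With each group's mean taken off, the nearest genes were Adamts18, Prickle2, Ybey, Acan, Col9a1, Odam, Slc35a1, Tssc4, Slc38a3 and Klf12, with r of 0.655 to 0.746. They were picked as the highest among all kept genes, and whether such r exceeds chance was not tested. Prickle2, Ybey and Acan were low, with no group mean above 2.39 CPM. Odam, which lies in the casein locus, averaged 35.3 CPM in PyMT-M vehicle and 24.6 CPM in H3B-8800 tumors.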

How the data were processed

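Strand-specific polyA RNA-seq libraries of whole tumors were read from 1 table per library. Per the submitters' processing notes, HISAT2 2.0.4 and the builds mm10 and hg38 were used; the counting tool was not given in the sources used here. The authors deposited read counts per intron (reads overlapping it and reads inside it) and an RPKM per intron, which was not used. A gene's spliced reads were the overlapping minus the inside counts, summed over its introns. Libraries held 9820825 to 19700955 spliced and 858362 to 5684308 intronic reads, and none were identical. Genes with at least 1 CPM in 2 libraries (13001, all 6 members among them) were fitted over all 8 groups with edgeR 4.0.16 (quasi-likelihood, TMM, R 4.3.3), adjusted by Benjamini-Hochberg over all genes, and called at 0.05. Intron reads (52042 introns with means of at least 5 inside and 10 spliced reads) were fitted with the gene's spliced reads plus 0.5 as offset. DESeq2 1.42.0 was an alternative. Both fits were tested on simulated data.

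The members and gene lists were chosen with earlier results of these data known. Beyond the members, genes were named by rule: up to 4 called genes of each list with the smallest p, 18 genes always named where measured, and the 10 genes most like the members by each of 2 correlations. Odam was also named for its place in the casein locus. Exact intervals are at 95% and address counting error only, since reads carry no molecular identifiers. They can be too narrow for that error as well, because a read crossing more than 1 intron was counted at each. Replicates are separate tumors, so p-values measure the spread between tumors. The alternatives were another scaling, no filter, the median over introns, overlapping reads, DESeq2, each model fitted alone, a replicate block and leaving out each library, and, chosen after seeing the data, leaving out libraries with muscle or B cell transcripts (mean log2(CPM + 1) of the markers above 2).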

Additional observations from a re-analysis of the deposited data

Results flagged for a closer look

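Among 16 groups of 4 PyMT-M values that were checked, 3 held a library far from the others, and chance marks about 1 in 20 groups. Csn1s2a stood at 60.7 CPM in H3B-8800 replicate 4, below the other treated libraries. Lalba stood at 3.73 CPM in vehicle replicate 3, above the others. The reads of the last over the first listed Csn3 intron came to 2.50 in vehicle replicate 4.

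The drug contrast of Csn3 ran in opposite directions between models, with every treated library on one side of the vehicle libraries. How many of all genes separate in this way was not computed. The pooled ratio of H3B-8800 over vehicle was 5.01 in T11 and 0.200 in 2208L, a difference that was not tested. The T11 libraries go against their labels in intron reads, in ranges that overlap. In AT3 the ratio was 6.11 against 0.200 in 2208L, and the difference, tested after the values were seen, had an edgeR adjusted p of 0.0367.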

How the results depend on the processing

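Counts of members called kept within 1.5 times in 183 of the alternative fits and moved in 21. In PyMT-M the count with H3B-8800 was 0 with DESeq2, with PyMT-M fitted alone and, an alternative chosen after seeing the data, without the libraries with muscle or B cell transcripts, and it ran from 0 to 2 when 1 library was left out. It was also 0 with the median over introns, which tests nothing here: 4 of the 7 listed Csn1s2a introns hold no spliced reads in PyMT-M, so that median is 0 in both groups. In 2208L it was 1 with 2208L fitted alone and 0 to 3 when 1 library was left out. Without the muscle or B cell libraries T11 had 1 member called. The difference between PyMT-M and AT3 had 1 with overlapping reads, with only those models fitted and without the muscle or B cell libraries. AT3 over T11 ran from 0 to 1 when 1 library was left out. For the other settings the cause was not tested. Single genes kept their side of the threshold in 312 fits, lost the call in 28, gained it in 7 and changed sign in 11. Lalba in PyMT-M was at -0.55 without the muscle or B cell libraries and ran from -0.093 to 1.25 when 1 library was left out. Csn1s1 in 2208L over PyMT-M was 0.0061 with no filter, 0.13 with the median over introns and with overlapping reads, 0.0023 with only those models, and ran from -0.16 to 0.16 when 1 library was left out. Lalba there ran from -0.28 to 1.19. None of these sign changes was called. The 3 Csn3 introns called in PyMT-M stayed 3 when 1 library was left out.

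Same-numbered libraries did not pair: their deviations correlated from -0.364 to 0.369. With the replicate block, Csn1s2a in PyMT-M was at 1.59 (edgeR adjusted p 0.0673), Csn1s1 at -1.98 (0.0486), and the count in 2208L was 3.

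Most members had at most 4 reads a group in T11 and AT3, so differences there were not detectable in most members.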
